A study of Bos taurus with 12 samples.

Results

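Blood vessels of the endometrium were followed through 43 genes of endothelial cells and of angiogenesis, the sprouting of new vessels from existing ones. The 43 genes were listed by name for their known roles, with earlier results of these data known. They comprise genes of the vessel wall and endothelial identity, VEGF ligands and receptors, the angiopoietin and TIE system, endothelial transcription factors, lymphatic genes and other vessel signals. The deposited table of 13930 gene symbols held 40 of them, and FLT4, SOX7 and MMRN2 were not analysed here. Counts were high enough to test 37 of these 40, among 10959 genes tested in all.

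The tissue was endometrium, the lining of the uterus, biopsied on day 4 of the estrous cycle from dairy cows (Bos taurus) kept on pasture, and the study asked how progesterone early in diestrus relates to its gene expression. Polyadenylated RNA was sequenced in 12 libraries, 3 in each of 4 classes of progesterone concentration. The very high class (SO in the sample titles) lay above 20 ng/ml and the high class (HPP4) above 2.5 ng/ml. The low class (LPP4) lay below 1.4, given in mg/dl in its labels, and the very low class (ANE) below 0.25 ng/ml. The labels state no treatment, do not explain ANE or SO, and do not say that the 3 replicates of a class are separate cows, so a p-value here reflects only how far these samples spread, which need not be the spread between cows.

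Endothelial cells line every vessel and are held together by junction proteins such as CDH5, CLDN5 and PECAM1. VEGFA acts through the receptor KDR to make them divide and sprout, FLT1 binds VEGFA and PGF, and VEGFC acts mainly on lymphatic vessels. Angiopoietin 1 acts through TEK to steady vessels, with angiopoietin 2 as its context-dependent opponent. In the cyclic ruminant uterus, vessels grow and regress with each estrous cycle, and the corpus luteum is the main source of circulating progesterone.

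Total counts ran from 3772564 to 8379489 per library. The libraries differed in transcripts of cell type markers, for smooth muscle mostly along the progesterone classes. The mean log2 CPM (counts scaled to a common library size) of 14 smooth muscle markers was 9.06 to 11.4 in 7 libraries (all 3 very high, all 3 high and very low replicate 1) and 4.76 to 6.08 in the other 5. Very low replicate 1 was also lowest in epithelial markers, with a mean log2 CPM of 4.00 for 9 genes against 6.55 to 9.03 in the other 11 libraries. In bulk tissue, fewer cells of a type and less RNA per cell cannot be told apart. Defining endothelial markers were present: PECAM1, CDH5, VWF, KDR, TEK and TIE1 were counted in all 12 libraries.

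No endothelial or angiogenic gene passed the adjusted threshold of 0.05 of edgeR's quasi-likelihood test in any of the 9 comparisons. For very high against very low the count was 0 of 37, where 1.52% of all tested genes passed. At an unadjusted p under 0.05 the same comparison gave 7 of 37 genes (18.9%), against 23.8% of all tested genes. The 7 were PGF, SOX17, TEK, RAMP2, CLDN5 and S1PR1, which were higher in the very high class, and VEGFA, which was lower. DESeq2 called 3 of them, TEK, S1PR1 and PGF. The shares of all tested genes given here and below are edgeR's, and DESeq2's own shares are not given. The median log2 fold change of the 37 genes was 0.27, beside -0.12 over all tested genes, and 22 of the 37 (59.5%) lay above 0, beside 42.4% of all tested genes. In 4 members all very high libraries lay above all very low ones, beside 13.4% of all tested genes, and in 1 member, FLI1, all lay below, beside 12.2%.

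The other comparisons gave the same count of 0. In high against low, 0% of all tested genes passed, and 5 of 37 members had an unadjusted p under 0.05 in edgeR, against 10.3% of all genes. DESeq2 called MMRN1 alone. In very high against high, 0% of all genes passed, no member had an unadjusted p under 0.05 in edgeR (0.794% of all genes had one), and DESeq2 called none. In low against very low, 0% of all genes passed and 6 members reached the unadjusted level, against 11.6% of all genes, with MMRN1 called by DESeq2. In very high against low, 0% passed, 2 members reached the unadjusted level, against 11.9% of all genes, and DESeq2 called MMRN1. In high against very low, 0% passed, 8 members reached the unadjusted level, against 18.8% of all genes, and DESeq2 called CLDN5, S1PR1 and TEK. In that comparison 10 members lay above without overlap, beside 10.7% of all genes, and 0 below, beside 9.63%.

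The 6 libraries of the high and very high classes (the upper libraries) were also set together against the 6 of the low and very low classes (the lower libraries). There edgeR passed 5.92% of all tested genes and 0 of 37 members. At the unadjusted level 7 members were counted, CLDN5, TEK, MMRN1 and S1PR1 above 0 and VEGFA, FLI1 and APLNR below, against 25.8% of all genes, and DESeq2 called CLDN5, TEK, FLI1 and MMRN1. A slope over the ranked classes (1 to 4) passed for 7.48% of all genes and 0 of 37 members. It gave 5 members at the unadjusted level, against 27.9% of all genes, and DESeq2 called CLDN5, S1PR1, TEK and VEGFA. The joint test of the 4 classes passed 0% of all genes, and 5 members reached the unadjusted level, against 17.8% of all genes, with MMRN1 called by DESeq2. Members reached the unadjusted level in a larger share than all genes in 3 of the 9 comparisons, high against low (13.5%), low against very low (16.2%) and high against very low (21.6%), and in a smaller share in the other 6.

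The precision limits what a count of 0 can say. The 95% interval of the log2 fold change between very high and very low reached a median of 1.12 to either side over the 37 members, from 0.67 for S1PR1 to 2.58 for MMRN1. Only 3 of the 37 intervals lay wholly within 1 log2 unit of 0. Between the 6 upper and 6 lower libraries the interval reached a median of 0.79 to either side, and 12 of the 37 intervals lay within 1 log2 unit.

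**Figure D1:**
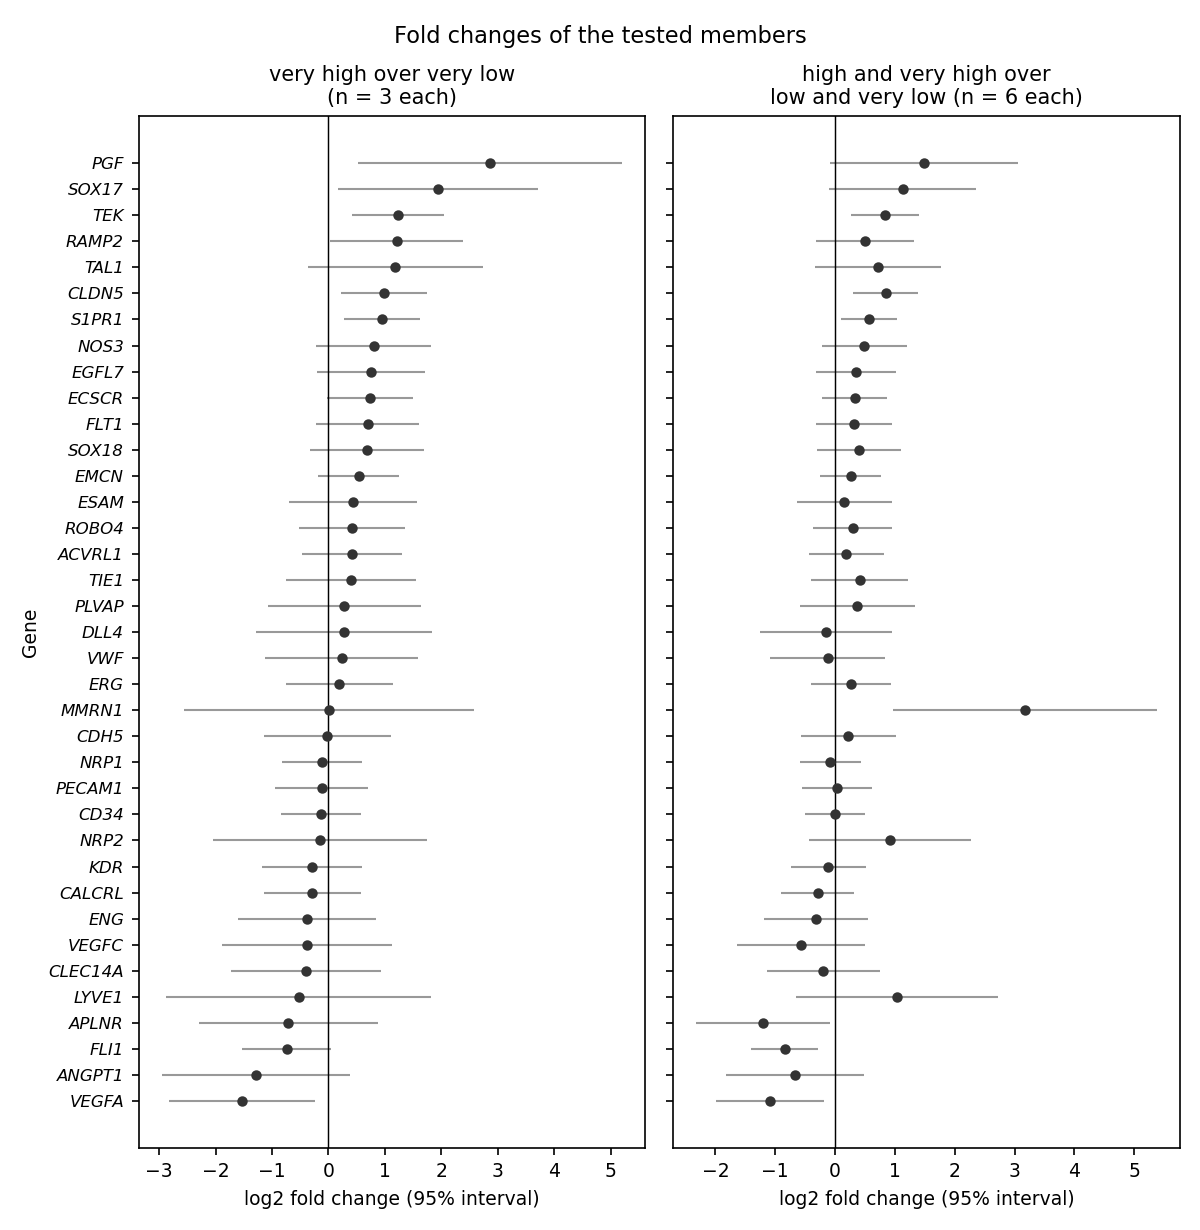
Log2 fold changes of the 37 tested genes (points) with 95% intervals (lines) from edgeR, for very high over very low on the left and for the high and very high classes over the low and very low classes on the right, with genes in the order of the left panel. PGF stands highest on the left at 2.87 and VEGFA lowest at -1.54, and MMRN1 stands highest on the right at 3.17.

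Among junction and wall genes, CLDN5 had the clearest difference. CLDN5 encodes claudin 5, the tight junction protein that limits leakage of small molecules between endothelial cells. It had 31.7, 25.2 and 13.6 CPM in the very high libraries, against 12.5, 9.29 and 13.5 CPM in the very low libraries. The very high libraries all lay above the very low ones, but very high replicate 3 was close to very low replicate 3. The high libraries held 32.6, 24.5 and 23.7 CPM, against 13.8, 13.3 and 22.6 CPM in the low libraries, again without overlap. The log2 fold change of the upper over the lower 6 libraries was 0.85 (95% interval 0.31 to 1.38, adjusted p = 0.0628 in edgeR). Over its 17 alternatives that adjusted p ran from 0.0123 to 0.156, and DESeq2 alone brought it under 0.05. The 6 upper and 6 lower libraries overlapped, since very high replicate 3 lay below low replicate 3.

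PECAM1, a platelet and endothelial adhesion molecule found at endothelial contacts, showed the smallest spread of class means. From very low to very high, it averaged 29.7 ± 2.68, 27.0 ± 12.4, 30.8 ± 4.45 and 27.3 ± 12.5 CPM (SD over 3 libraries). Its highest class mean was 1.14 times its lowest. CDH5, the VE-cadherin of adherens junctions, averaged 8.64 ± 3.90 CPM in the very high class, against 8.73 ± 4.95 CPM in the very low class. CD34, a surface sialomucin, and CLEC14A, an endothelial C-type lectin, likewise had class means within 1.33 and 1.31 times of each other. The 4 classes of these genes overlapped. CD34 had 33.1, 36.4 and 18.1 CPM in the very high libraries, against 48.3, 38.1 and 29.7 CPM in the high libraries (log2 fold change -0.41, adjusted p = 0.9999 in edgeR).

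VWF, the clotting glycoprotein stored in endothelial granules, varied widely within classes. It had 17.7, 76.4 and 95.02 CPM in the very low libraries and 74.5, 67.0 and 209 CPM in the low ones. The high libraries held 96.6, 108 and 45.8 CPM and the very high ones 97.9, 75.4 and 49.3 CPM. Very low replicate 1 was the lowest and low replicate 3 the highest of all. EMCN, a sialomucin of capillary and venous endothelium, had 83.5, 84.4 and 66.8 CPM in the high libraries, against 24.04, 38.2 and 63.6 CPM in the very low libraries. All 3 high libraries lay above the very low ones (log2 fold change 0.90, adjusted p = 0.198 in edgeR). NOS3, the endothelial nitric oxide synthase, ran from 2.83 CPM in very low replicate 1 to 17.7 CPM in very high replicate 2, and its classes overlapped. ENG, a TGF-beta co-receptor, ran from 62.5 to 354 CPM over the 12 libraries, and PLVAP, which forms the diaphragms of capillary pores, from 6.45 to 49.99 CPM. EGFL7, a secreted endothelial factor, ran from 13.4 to 65.7 CPM, ROBO4 from 14.7 to 53.1, ESAM from 6.20 to 26.5 and ECSCR from 16.5 to 58.9. Very low replicate 2 was lowest in all 6 of these, and low replicate 3 was highest in all but PLVAP. Of the 14 wall and identity genes tested, 1, CLDN5, had an unadjusted p under 0.05 in very high against very low.

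**Figure D2:**
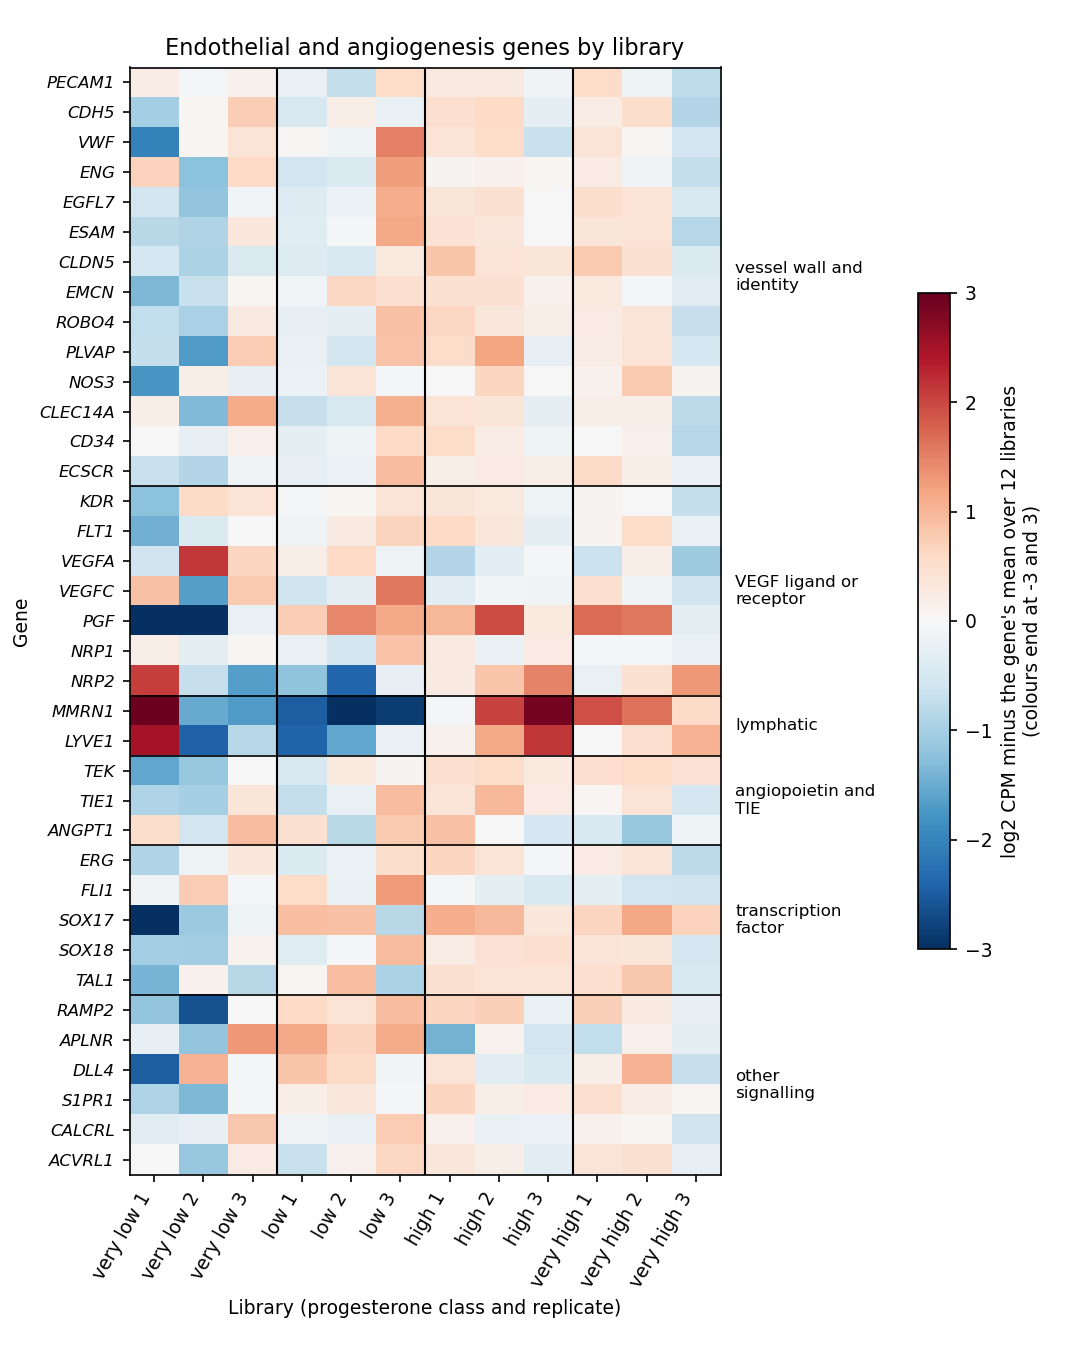
Log2 CPM of the 37 tested genes (rows, by role) in the 12 libraries (columns, by class from very low to very high) after subtracting each gene's mean over the libraries, with colours ending at -3 and 3. Very low replicates 1 and 2 and very high replicate 3 are pale to blue for many wall genes and low replicate 3 is red, while MMRN1 and LYVE1 are reddest in very low replicate 1 and high replicate 3.

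The ligand VEGFA had lower values in the upper classes, without passing the adjusted threshold. It had 44.3, 80.1 and 33.4 CPM in the very high libraries, against 45.8, 304 and 109 CPM in the very low libraries. The ranges overlapped: very low replicate 1 sat among the very high libraries, and very low replicate 2 was far above every other. Very low replicate 2 also had the lowest total count of the 12 libraries (3772564). Its mean log2 CPM of the 9 epithelial markers was the highest (9.03). The part of either in the VEGFA values was not tested. The log2 fold change was -1.54 (SE 0.58, 95% interval -2.83 to -0.24, adjusted p = 0.149 in edgeR). The low libraries held 80.0, 105 and 63.2 CPM and the high ones 37.7, 55.7 and 67.0 CPM. The slope was -0.52 per class (adjusted p = 0.0725 in edgeR). Over its 17 alternatives the slope ran from -0.65 to -0.22 and the adjusted p from 0.0227 to 0.387. Without very low replicate 1, which is rich in smooth muscle and poor in epithelial transcripts, the slope was -0.62 (adjusted p = 0.0227 in edgeR). The upper over lower log2 fold change of VEGFA was -1.08 (adjusted p = 0.125 in edgeR), and it was 0.22 once the smooth muscle score entered as covariate. That score ran from 4.83 to 11.4 within the very low class and spread far less within the others. All values with this covariate therefore lean on very low replicate 1.

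PGF, the placenta growth factor that binds FLT1 and not KDR, set the very low class apart. It had 74.03, 69.6 and 18.7 CPM in the very high libraries, against 0.177, 1.55 and 19.6 CPM in the very low libraries. The high libraries held 46.02, 90.2 and 28.2 CPM and the low ones 38.1, 62.2 and 50.9 CPM. Very low replicates 1 and 2 were far below the other 10 libraries, and very low replicate 3 reached the level of very high replicate 3. The log2 fold change of very high over very low was 2.87 (SE 1.06, 95% interval 0.52 to 5.21, adjusted p = 0.142 in edgeR). Without very low replicate 3 it was 6.10 (adjusted p = 0.0246 in edgeR), with the smooth muscle covariate 4.82 (0.0338) and in DESeq2 2.93 (0.0390), while over its 18 alternatives the adjusted p reached 0.330. PGF also lay above the very low class in all 3 low libraries, with a log2 fold change of 2.76 (adjusted p = 0.366 in edgeR).

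VEGFC had 20.5, 3.36 and 19.2 CPM in the very low libraries, 7.25, 9.21 and 33.6 in the low, 8.72, 10.5 and 10.2 in the high and 15.7, 10.3 and 7.26 in the very high. Its classes overlapped throughout. The main signalling receptor KDR had 47.3, 44.2 and 26.9 CPM in the very high libraries, against 18.7, 66.9 and 58.9 CPM in the very low libraries, and its highest class mean was 1.29 times its lowest. FLT1 had 14.9, 20.6 and 12.1 CPM in the very high libraries, against 4.95, 10.3 and 14.04 CPM in the very low libraries, with overlap. NRP1, a co-receptor for VEGFA, ran from 32.4 to 86.1 CPM, with class means within 1.22 times of each other. NRP2, the co-receptor for VEGFC, is described with the lymphatic genes.

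Log2 ratios of ligands and of receptors were taken within each library, where library scaling enters only through the prior count. PGF over VEGFA averaged -0.09 ± 0.81 in the 6 upper libraries and -3.11 ± 3.12 in the 6 lower ones (SD, n = 6 each). The difference of 3.01 had p = 0.0260 in the two-sided exact permutation test over 924 splits, and 0.0779 after adjustment over 3 ratios. The ratio was -6.66, -7.38 and -2.46 in the very low libraries, and -1.07, -0.76 and -0.31 in the low ones, and the 3 very low libraries lay below all 9 others. The highest value of the lower libraries, -0.31, lay above 2 of the 6 upper libraries. FLT1 over KDR averaged -1.45 ± 0.29 in the upper and -1.84 ± 0.48 in the lower libraries (difference 0.39, exact permutation p = 0.108, adjusted 0.162). VEGFC over VEGFA averaged -2.28 ± 0.50 in the upper and -2.97 ± 2.00 in the lower libraries (difference 0.69, exact permutation p = 0.502, adjusted 0.502).

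TEK, the receptor of the angiopoietins, had the smallest p of the 37 genes between very high and very low. It had 37.8, 39.4 and 35.9 CPM in the very high libraries, against 8.84, 11.9 and 26.9 CPM in the very low libraries. The groups did not overlap, and the very high libraries lay close together. The low libraries held 19.1, 32.8 and 28.2 CPM and the high ones 37.0, 39.0 and 32.5 CPM. Over the 4 classes TEK averaged 15.9 ± 9.68, 26.7 ± 6.95, 36.2 ± 3.36 and 37.7 ± 1.75 CPM from very low to very high (SD, n = 3 each). The log2 fold change of very high over very low was 1.24 (SE 0.37, 95% interval 0.42 to 2.05, adjusted p = 0.0896 in edgeR), and the slope was 0.41 per class (adjusted p = 0.0540 in edgeR). The adjusted p of very high against very low ran from 0.0179 to 0.235 over 18 alternatives, and that of the slope from 0.00722 to 0.113 over 17. Both came under 0.05 in DESeq2, with the smooth muscle covariate and without very low replicate 3. TEK overlaps the tested gene IFT74 in the assembly ARS-UCD2.0, and the strand setting of the counting is not given in the sources used here, so their reads cannot be told apart.

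The partner receptor TIE1 had 11.4, 14.8 and 7.65 CPM in the very high libraries, against 5.66, 5.42 and 14.3 CPM in the very low libraries, with overlap. ANGPT1, the activating ligand of TEK, was thinly counted, at 0.249 to 1.95 CPM over the 12 libraries. It had 0.572, 0.249 and 0.792 CPM in the very high libraries, against 1.88, 0.893 and 0.546 CPM in the high libraries, with overlap (log2 fold change -1.02, adjusted p = 0.9999 in edgeR). ANGPT2, the opposing ligand, was listed at 0 in all 12 libraries. It overlaps the tested gene MCPH1 in the assembly ARS-UCD2.0, and whether its reads were lost in counting was not tested, so the 0 is not read as a level. By counting error alone, 0 counts would allow at most 0.0347 CPM over the 12 libraries together (3 counts of their total). No ratio of ANGPT2 to ANGPT1 was therefore computed.

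**Figure D3:**
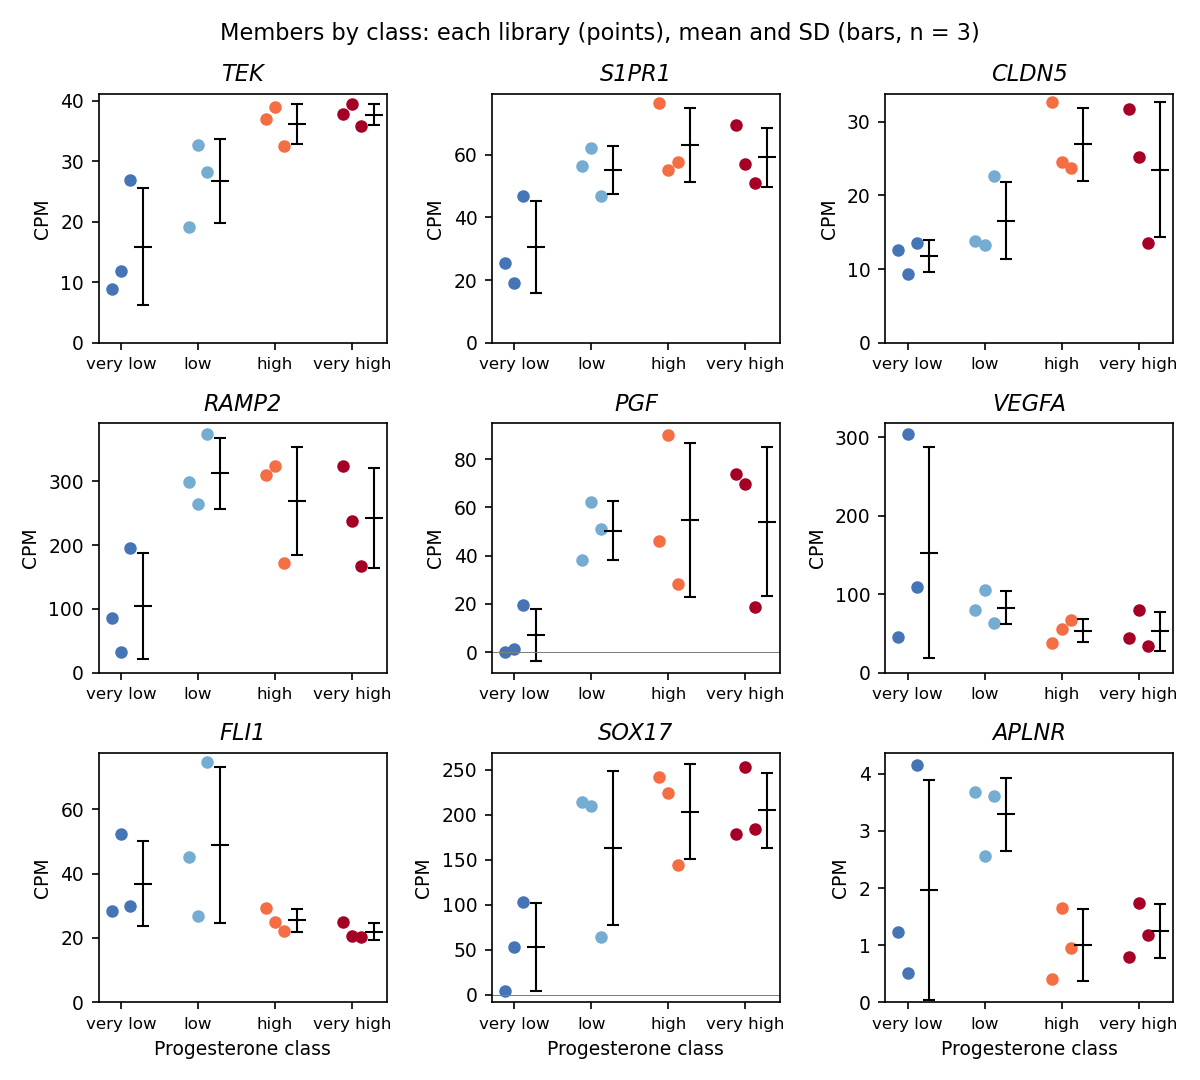
CPM of 9 genes in each library (points) with the class mean and SD (bars, n = 3), for the classes from very low to very high. TEK means run from 15.9 CPM in the very low class to 37.7 CPM in the very high class, PGF and SOX17 are low in the very low class alone in their means, and VEGFA has 1 very low library at 304 CPM.

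SOX17, a transcription factor of arterial endothelium that is also made by uterine epithelium in mice, had the lowest values in very low libraries. It had 178, 253 and 184 CPM in the very high libraries, against 4.42, 52.7 and 103 CPM in the very low libraries, without overlap. Outside the very low class, low replicate 3 was lowest at 64.0 CPM, and the next was high replicate 3 at 143 CPM. The log2 fold change of very high over very low was 1.94 (SE 0.80, 95% interval 0.17 to 3.72, adjusted p = 0.175 in edgeR). With the smooth muscle score as covariate it was 3.99 (adjusted p = 0.0073 in edgeR), and over its 18 alternatives the adjusted p ran from 0.0073 to 0.366. The covariate leans on very low replicate 1, where SOX17 was also lowest, so the 3.99 depends on that library. The epithelial score of the same very low libraries was 4.00, 9.03 and 7.57, and its part in the SOX17 difference was not tested.

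FLI1, an ETS factor of endothelial and blood cells, had lower values in the upper classes. It had 24.9, 20.7 and 20.3 CPM in the very high libraries, against 28.5, 52.1 and 30.0 CPM in the very low libraries, without overlap. The low libraries held 45.1, 26.7 and 74.7 CPM and the high ones 29.3, 24.9 and 22.2 CPM. The 6 upper and 6 lower libraries overlapped, since high replicate 1 lay above low replicate 2 and very low replicate 1. The upper over lower log2 fold change was -0.84 (95% interval -1.40 to -0.28, adjusted p = 0.0685 in edgeR). It came under 0.05 in 3 of 17 alternatives (0.0201 to 0.296 in all): DESeq2, without very low replicate 1 and without low replicate 2. Leukocyte markers moved with it. The mean log2 CPM of 7 leukocyte genes was 3.76 to 4.95 in the 6 upper libraries, against 4.997 to 6.56 in the 6 lower ones, without overlap. Of these 7 genes, 5 were lower past the edgeR threshold, where 5.92% of all tested genes passed. Their part in the FLI1 values was not tested.

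ERG, the ETS factor of endothelial identity, had 13.96, 15.3 and 6.73 CPM in the very high libraries, against 6.19, 10.6 and 14.7 CPM in the very low libraries, with overlap. SOX18, a factor of developing blood and lymph vessels, had 12.1, 14.03 and 14.9 CPM in the high libraries, against 4.95, 4.90 and 11.2 CPM in the very low libraries, without overlap. TAL1, shared by endothelial and blood precursors, stayed at 0.35 to 2.81 CPM. None of these 3 factors had an unadjusted p under 0.05 between very high and very low.

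S1PR1, the receptor for sphingosine 1-phosphate that tightens vessel junctions, had the narrowest interval of the 37 genes. It had 69.6, 57.0 and 50.9 CPM in the very high libraries, against 25.6, 19.1 and 46.9 CPM in the very low libraries, without overlap. The low libraries held 56.3, 62.1 and 46.9 CPM and the high ones 76.5, 55.1 and 57.6 CPM, so the very low class alone stood apart in its mean. The log2 fold change of very high over very low was 0.95 (SE 0.30, 95% interval 0.28 to 1.62, adjusted p = 0.103 in edgeR). Over 18 alternatives the adjusted p ran from 0.0264, without very low replicate 3, to 0.261, and DESeq2 also gave under 0.05.

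RAMP2, which pairs with CALCRL to form a receptor for adrenomedullin, also averaged lowest in the very low class. It had 324, 238 and 167 CPM in the very high libraries, against 86.4, 32.3 and 196 CPM in the very low libraries, with overlap through very low replicate 3. In the low class it had 299.6, 264 and 374 CPM, all above the very low class (log2 fold change 1.57, SE 0.54, adjusted p = 0.332 in edgeR). Its partner CALCRL ran from 10.7 to 28.9 CPM, with class means within 1.25 times of each other.

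APLNR, the receptor of the peptide apelin, was low in count and lower in the upper classes. It had 0.403, 1.66 and 0.955 CPM in the high libraries, against 3.69, 2.56 and 3.62 CPM in the low libraries, without overlap (log2 fold change -1.69, SE 0.72, adjusted p = 0.459 in edgeR). The very high libraries held 0.801, 1.75 and 1.19 CPM, also below the low libraries (log2 fold change -1.39, adjusted p = 0.473 in edgeR), and the very low ones 1.24, 0.516 and 4.16 CPM. Very high over high gave a log2 fold change of 0.30 (adjusted p = 0.9999 in edgeR). APLN, its ligand, had 11, 3, 2 and 5 counts in all in the very low, low, high and very high classes and was not tested. DLL4, the Notch ligand of sprouting tip cells, had 20.6, 37.5 and 10.9 CPM in the very high libraries, against 24.2, 14.2 and 12.96 CPM in the high libraries. Their ranges overlapped (log2 fold change 0.43, adjusted p = 0.9999 in edgeR). ACVRL1, a TGF-beta family receptor of endothelium, ran from 23.5 to 80.5 CPM, with class means within 1.33 times of each other.

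MMRN1, LYVE1 and NRP2 were higher in the 7 libraries rich in smooth muscle markers, which not every lymphatic marker was. Those libraries are all the high and very high ones and very low replicate 1. MMRN1 (multimerin 1, a secreted protein of platelets and endothelium that marks lymphatic vessels) had 2.68, 12.1 and 21.8 CPM in the high libraries, against 0.264, 0 and 0.145 CPM in the low libraries. The 275 counts of the high class against 3 of the low class gave a ratio of 90.4 (95% exact interval 30.6 to 441, counting error only). The edgeR log2 fold change was 6.33 (SE 1.64, 95% interval 2.71 to 9.94) with an unadjusted p of 0.00275 and an adjusted p of 0.351. It came under 0.05 in DESeq2 (0.00295) and without very low replicate 1 (0.0281), and over its 18 alternatives the adjusted p reached 0.996. In the very high libraries MMRN1 had 11.3, 9.10 and 4.22 CPM, and in the very low ones 23.0, 0.774 and 0.650 CPM. The highest of the 12 was thus very low replicate 1, the library with the most smooth muscle.

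LYVE1, the hyaluronan receptor of lymphatic endothelium that some macrophages also carry, had 5.90, 12.2 and 24.7 CPM in the high libraries, against 0.791, 1.66 and 4.63 CPM in the low libraries. NRP2 had 58.0, 85.3 and 134 CPM in the high libraries, against 20.4, 8.96 and 40.5 CPM in the low libraries. Neither overlapped, with log2 fold changes of 2.59 for LYVE1 (SE 1.14, adjusted p = 0.473) and 1.99 for NRP2 (SE 0.89, adjusted p = 0.484) in edgeR. In very low replicate 1 they reached 31.8 and 204 CPM, above all other libraries. NRP2 had 40.8, 65.2 and 117 CPM in the very high libraries and 204, 29.4 and 14.9 CPM in the very low ones. Its log2 fold change was 1.68 for very high over low (adjusted p = 0.491 in edgeR) and -1.83 for low over very low (adjusted p = 0.463 in edgeR). With the smooth muscle score as covariate, the high over low log2 fold change was -0.89 for LYVE1 and -0.31 for NRP2, both turned in sign, and 2.58 for MMRN1. These covariate values too lean on very low replicate 1.

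Set out by smooth muscle score, MMRN1 had 2.68 to 23.0 CPM in the 7 muscle-rich libraries, against 0 to 0.774 CPM in the other 5. LYVE1 had 5.49 to 31.8 CPM in the muscle-rich libraries, against 0.774 to 4.63 CPM in the others. NRP2 had 40.8 to 204 CPM, against 8.96 to 40.5 CPM, a narrow gap. These 3 of the 37 members lay above without overlap, beside 2.81% of all tested genes, and 0 lay below, beside 2.45%. Of 4 further lymphatic markers outside the list, 1 lay above without overlap, CCL21, the chemokine of lymphatic vessels, with 3.83 to 95.6 CPM in the muscle-rich libraries, against 0 to 0.132 CPM in the others. The other 3 overlapped: RELN had 8.97 to 43.003 CPM in the muscle-rich libraries, against 0.774 to 10.02 CPM in the others, and NR2F2 had 166.8 to 416 CPM, against 76.4 to 244 CPM. PDPN ran lower, with 4.58 to 11.1 CPM in the muscle-rich libraries, against 8.26 to 23.4 CPM in the others. PROX1, the master regulator of lymphatic fate, had only 8, 2, 4 and 6 counts in all in the very low, low, high and very high classes and was not tested. The muscle-rich libraries include every high and very high library, so progesterone class and smooth muscle content cannot be told apart except through very low replicate 1. The muscle score is measured in the same libraries, and its grouping is a description with no test.

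**Figure D4:**
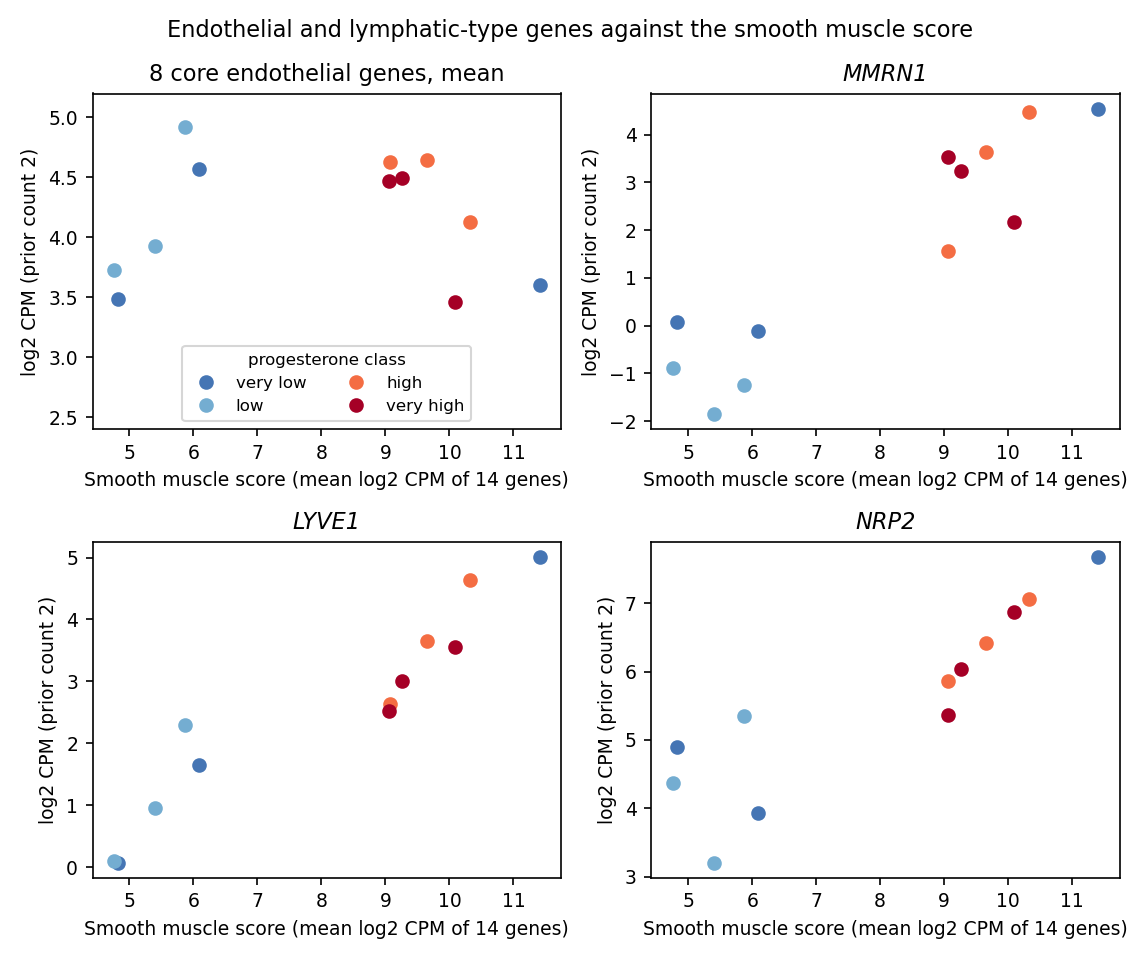
Mean log2 CPM of 8 pan-endothelial genes and log2 CPM of MMRN1, LYVE1 and NRP2 (vertical axes, prior count 2) against the mean log2 CPM of 14 smooth muscle genes (horizontal axes), 1 point per library, coloured by class. The 7 libraries at 9.06 to 11.4 hold the highest MMRN1, LYVE1 and NRP2, while the 8 pan-endothelial genes run from 3.46 to 4.92 without such a split.

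To see how much of the variation the genes shared, their values were set against a core of 8 pan-endothelial genes, PECAM1, CDH5, TIE1, ESAM, CLEC14A, ERG, ROBO4 and EGFL7. The mean log2 CPM of the core was 3.61, 3.49 and 4.57 in the very low libraries, 3.73, 3.93 and 4.92 in the low, 4.63, 4.64 and 4.13 in the high and 4.47, 4.49 and 3.46 in the very high. The range was 1.46 log2 units, or 2.75-fold, and both its ends, very high replicate 3 and low replicate 3, differed from other libraries of their own class. The classes overlapped.

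Many members kept close to that core, which is itself made of members. The SD over the 12 libraries of log2 CPM relative to the core was under 0.5 for 19 of the 37 members, beside 9.21% of all tested genes. Core genes were compared with the core without themselves, and all of them but CDH5 (0.501) are among the 19. The tightest were ROBO4 (0.181), the Slit-binding receptor of endothelium, and ESAM (0.209), an adhesion molecule of tight junctions. ERG (0.246), CD34 (0.272), SOX18 (0.286) and ECSCR (0.288) followed. Relative to the core, 25 of the 37 members varied less than in plain log2 CPM. Their median SD was 0.493 relative to the core and 0.632 without it, while over all tested genes the order was the reverse, 0.711 and 0.486. Subtracting the core adds its own spread to any gene that does not share it, which lowers the share of all genes under 0.5. The members share libraries and depth, and the core was chosen as endothelial, so these SDs are descriptions with no test.

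7 members had an SD over 1 relative to the core. MMRN1 (2.37), LYVE1 (1.62) and NRP2 (1.48) were the genes split by smooth muscle score. That score cannot be told apart from progesterone class except through very low replicate 1. PGF (2.04), VEGFA (1.10) and DLL4 (1.01) are ligands, and SOX17 (1.53) is a transcription factor. No other member exceeded 1.

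The wider pathway was counted in 5 further lists. In very high against very low, edgeR passed 1 of 6 tested inhibitors, HHIP, where 1.52% of all tested genes passed. It passed 0 of 9 VEGF and hypoxia genes, 0 of 7 Notch and ephrin genes, 0 of 11 vessel tone genes and 0 of 19 other endothelial genes, with 2, 3, 3 and 7 of them at an unadjusted p under 0.05, against 23.8% of all tested genes. HHIP, which binds hedgehog ligands and limits their signal, had 4.12, 2.12 and 5.28 CPM in the very high libraries, against 0, 0.258 and 0.130 CPM in the very low libraries, without overlap. It rose by 4.83 log2 units (adjusted p = 0.0365 in edgeR, 0.000895 to 0.112 over 18 alternatives). The very low values lie below what 3 counts give in a library (0.343 to 0.774 CPM), so the size of this rise is poorly fixed. The call was lost in a fit of the compared classes alone and without very low replicate 2, high replicate 3 or any very high replicate.

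In the upper over the lower 6 libraries, HHIP was again the 1 of 6 inhibitors that rose, by 3.22 log2 units (adjusted p = 0.0298 in edgeR). Of the 19 other endothelial genes, 1 rose and 1 fell, where 5.92% of all tested genes passed. At an unadjusted p under 0.05, 10 of the 19 were lower and 1 higher, against 25.8% of all tested genes in either direction. The gene that rose was RASIP1, a RAS-interacting protein needed for vessel lumen formation in mice. RASIP1 averaged 48.0 ± 11.5 CPM in the upper libraries, against 27.8 ± 10.2 CPM in the lower ones (SD, n = 6 each, log2 fold change 0.84, adjusted p = 0.0410 in edgeR). The gene that fell was VCAM1, the adhesion molecule by which leukocytes bind the vessel wall. VCAM1 averaged 14.9 ± 5.24 CPM in the upper libraries, against 55.7 ± 44.1 CPM in the lower ones (log2 fold change -1.86, adjusted p = 0.0387 in edgeR). With the smooth muscle covariate its log2 fold change was -0.52 (adjusted p = 0.355 in edgeR). Leukocyte markers were lower in the same upper libraries. The smooth muscle score was higher there than in every lower library but very low replicate 1, which was highest of all at 11.4. Of the 14 smooth muscle genes, 0 passed the edgeR threshold in upper over lower. The part of either marker set in these differences was not tested.

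These calls were sensitive to single libraries. HHIP lost its upper over lower call without low replicate 1 or 3, high replicate 2 or any very high replicate. RASIP1 lost its call without very low replicate 2, low replicate 1 or 3, or any high or very high replicate, and VCAM1 without low replicate 1 or 3 or any high or very high replicate. On the class rank, 3 of the 19 other endothelial genes fell, VCAM1 (slope -0.86, adjusted p = 0.0259 in edgeR) and the ETS factors ETS1 (-0.53, 0.0334) and ELK3 (-0.25, 0.0379), and HHIP rose (1.34, 0.0372), where 7.48% of all tested genes passed. Each of these 4 slopes missed the threshold without very low replicate 2, very high replicate 2 or very high replicate 3, with adjusted p up to 0.107 in edgeR. ETS1 and HHIP also missed it with the smooth muscle covariate, ETS1 and ELK3 without any 1 of the high replicates, HHIP without high replicate 1 or 3, and all but VCAM1 without very high replicate 1. ELK3 also missed it without very low replicate 3 or low replicate 2 and with no filter on low counts, and HHIP without very low replicate 3. Of 17 alternatives, VCAM1 passed in 13, ETS1 and HHIP in 8 each and ELK3 in 6. No gene of the 5 lists passed in the other 5 pairs of classes or in the joint test.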

How the data were processed

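The authors deposited raw counts, whole numbers of reads per gene symbol in 1 column per sample, neither scaled nor pooled. Per the labels' protocols, libraries were made with a stranded oligo-dT kit, combined into 1 equimolar pool and read from both ends. Per the submitters' processing notes, FastQC 0.11.2 and Trimmomatic 0.32 were used, and UMD3.1 and bosTau8 are the genome builds named. Aligner, counter and strand setting were not given in the sources used here, so overlapping genes cannot be separated. Of the 37 tested members, 12 overlap another gene of the RefSeq table of ARS-UCD2.0, and 1, TEK, overlaps a tested gene. All 43 members matched that table by symbol, and its coordinates are not printed because its build is another.

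Genes were filtered with filterByExpr (count minimum 10), which left 10959, and scaled by TMM (factors 0.728 to 1.11). edgeR 4.0.16 in R 4.3.3 fitted the 4 class means to all 12 libraries with 8 residual degrees of freedom (biological coefficient of variation 44.0%). Contrasts were tested by quasi-likelihood and adjusted over all tested genes by Benjamini and Hochberg at 0.05. DESeq2 1.42.0 was an alternative. Scores are mean log2 CPM (prior count 2). Counts of replicates differed by more than counting error alone, with a chi-square of 20.0 to 258 per degree of freedom. That does not show that replicates came from separate cows. Of 4 planned ratios, 3 could be computed and were adjusted over 3.

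Members and lists were chosen with earlier results of these data known. Values in every library of the compared classes are given for the 2 members of smallest p in each direction in each comparison. Further members, PGF, SOX17 and VWF among them, were described after their values were seen. Genes of other lists are named where they passed the threshold. The test was also run on simulated data in which only the very high class had added changes. How often it recovered them is not given here.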

Additional observations from a re-analysis of the deposited data

How the results depend on the processing

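Scaling by relative log expression, no filter on low counts, and the replicate block left 0 members called in all 9 comparisons. The replicate numbers showed no sign of pairing the samples, though this check cannot exclude it. Same-numbered libraries correlated at -0.30 to 0.29 after centring on class means, 3 of 18 pairs over 0.1. Libraries of other numbers correlated at -0.39 to 0.37, and 4 of 12 libraries correlated best with their own number. With that replicate block 180 genes in all passed for the slope, against 820 without it, and 6 for the upper over the lower libraries, against 649, in edgeR. DESeq2 called 3 members in very high against very low and in high against very low, 4 in upper against lower and in the slope, 1 in high against low, low against very low, very high against low and the joint test, and 0 in very high against high. The share of all genes that DESeq2 called is not set beside these counts, so they are not a result about the members. The smooth muscle covariate gave 5 in very high against very low (NOS3, DLL4, TEK, PGF and SOX17), 6 in high against very low (these 5 and EMCN), 4 in upper against lower (NOS3, DLL4, SOX17 and KDR), 4 in the slope (NOS3, DLL4, TEK and SOX17) and 1 in the joint test (SOX17), while 10.4% to 16.5% of all genes passed in the first 4. A fit of the compared classes alone called 1 in very high against low (MMRN1). The shares of all genes for this fit and for the joint test with the covariate are not given here. Those counts are therefore not a result about the members. The smooth muscle covariate leans on very low replicate 1, since the score had an SD of 3.50 within the very low class. Within the other classes its SD was 0.547 to 0.626. The cause of these changes was not tested.

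Leaving out 1 library at a time gave 0 to 3 members in very high against very low and in high against very low, 0 to 5 in upper against lower, 0 to 1 in high against low, very high against low, the slope and the joint test, and 0 in the other 2. The library was very low replicate 1 (5 in upper against lower: LYVE1, NRP2, FLI1, MMRN1 and VEGFA), very low replicate 3 (3: S1PR1, TEK and PGF) or low replicate 2 (1: FLI1). The share of all genes passing in those fits is not given here, so these counts are not a result about the members. The difference in PGF over VEGFA ran from 2.16 to 3.57, and passed the adjusted threshold of the exact permutation test without low replicate 2 (3.48) or low replicate 3 (3.57). That in FLT1 over KDR ran from 0.23 to 0.48 and that in VEGFC over VEGFA from 0.0035 to 1.10.

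Log2 fold changes that turned in sign were LYVE1 (-0.89) and NRP2 (-0.31) in high over low, NRP2 in very high over low (-0.52) and VEGFA in upper over lower (0.22), all with the smooth muscle covariate. Leaving out 1 library, NRP2 in low over very low ran from -2.49 to 0.094 (without very low replicate 1), DLL4 in very high over high from -0.11 to 0.78 (the lowest without very high replicate 2) and APLNR there from -0.072 to 0.89 (-0.072 without high replicate 1, -0.030 without very high replicate 2). None of these passed in the main test. Of the other values of single genes under alternatives, 732 kept direction and side of the threshold, 36 passed it newly and 67, all of HHIP, RASIP1, VCAM1, ELK3 and ETS1, no longer passed; the replicate block was 1 such setting for each of the 5. Depth limits APLN and PROX1 most.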
